A study of Mus musculus with 4 samples.

Results

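The proneural bHLH genes studied here are the neurogenins Neurog1 and Neurog2, the NeuroD genes Neurod1, Neurod2, Neurod4 and Neurod6, and the NSCL genes Nhlh1 and Nhlh2. They were picked by symbol and make up 8 of the 24982 genes in the count table, and all 8 symbols were found. RNA sequencing had been done on micro-dissected mouse forebrain at E10.5, in mid-gestation, in 2 conditional knockout (cKO) and 2 control libraries. The cKO embryos carried the genotype Sox1 cre+/-; Chd7 f/f, that is, both alleles of the chromatin remodeller gene Chd7 were floxed and a Cre recombinase named for Sox1, a gene of early neural progenitors, was present. The controls were Chd7 +/f: 1 allele was floxed, and their label names no Cre. The Cre allele therefore goes with the cKO in every comparison, and its own effect cannot be told apart from that of Chd7 loss. Whether each library is 1 embryo or a pool is not stated, so a p-value here reflects only how far these 4 libraries scatter, which may be technical.

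Proneural bHLH proteins bind E-box motifs on DNA as dimers with the widely expressed E proteins, and they switch neural progenitors from division to neuronal differentiation. Neurogenins act first, in progenitors. NeuroD and NSCL genes follow in cells that are leaving the cell cycle and in young neurons, and several of them are direct targets of neurogenins. In the dorsal telencephalon Neurog2 is the main proneural factor and Neurog1 is its close relative. The title of the study names neurogenic genes as under the control of CHD7, which is the question these comparisons address.

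The promoters of 4 members are shown first because the values below turn on these genes: Neurod1 was called lower in the cKO, Neurog2 and Nhlh1 came nearest to the threshold after it, and Neurog1 is the paralog of Neurog2. Neurod4, which was also lower in both cKO libraries, is not printed but is counted below. Each sequence runs 5′ to 3′ on the strand of the gene, from 250 bases before the start of transcription to 50 bases after it, from RefSeq on GRCm38.p6. Capitals mark 2 E-box forms, CAGATG on either strand (CATCTG on the other) and the palindrome CAGCTG, and the TATA-type words TATATA and TATAAA on the strand of the gene. The positions are chr3:127632886-127633185 (plus strand) for Neurog2, chr13:56252131-56252430 (minus) for Neurog1, chr2:79456587-79456886 (minus) for Neurod1 and chr1:172057547-172057846 (minus) for Nhlh1. The Neurog2 window lies inside the gene span given below, which begins upstream of it at 127632733. What is said of its motifs holds for the start used here, not for the first base of that span.
Neurog2: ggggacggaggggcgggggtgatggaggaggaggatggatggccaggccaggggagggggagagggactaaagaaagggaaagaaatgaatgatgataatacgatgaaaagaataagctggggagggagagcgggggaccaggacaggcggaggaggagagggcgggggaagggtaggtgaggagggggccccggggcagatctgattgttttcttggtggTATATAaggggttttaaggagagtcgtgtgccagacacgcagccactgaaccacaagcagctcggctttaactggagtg
Neurog1: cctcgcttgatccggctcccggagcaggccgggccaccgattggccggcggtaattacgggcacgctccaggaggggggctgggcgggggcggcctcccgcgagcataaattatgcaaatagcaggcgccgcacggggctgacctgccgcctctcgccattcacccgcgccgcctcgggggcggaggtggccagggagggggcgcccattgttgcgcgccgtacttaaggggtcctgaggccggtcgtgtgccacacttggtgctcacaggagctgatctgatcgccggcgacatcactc
Neurod1: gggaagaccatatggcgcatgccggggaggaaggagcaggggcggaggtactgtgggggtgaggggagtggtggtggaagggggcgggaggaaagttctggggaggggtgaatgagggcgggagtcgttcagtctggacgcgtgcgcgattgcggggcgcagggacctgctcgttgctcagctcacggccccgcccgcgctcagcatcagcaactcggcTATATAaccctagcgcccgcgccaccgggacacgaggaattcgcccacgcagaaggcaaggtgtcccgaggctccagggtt
Nhlh1: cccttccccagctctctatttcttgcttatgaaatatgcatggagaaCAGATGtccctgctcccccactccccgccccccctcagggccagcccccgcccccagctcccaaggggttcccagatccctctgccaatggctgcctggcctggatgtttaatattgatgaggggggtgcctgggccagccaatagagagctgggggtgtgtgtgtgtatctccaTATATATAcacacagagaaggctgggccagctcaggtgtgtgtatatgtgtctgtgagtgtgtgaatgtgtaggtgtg

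All 8 members matched the promoter table, with 9 promoters because Neurod4 has an alternative start. CAGATG on either strand was in 3 of the 9, those of Nhlh1, Nhlh2 and Neurod2, against 17.2% of all 32851 promoters of the same length. CAGCTG was in 2 of the 9, those of Nhlh2 and Neurod4, against 16.3%. Neither E-box form was in the window of Neurog1, Neurog2 or Neurod1. A TATA-type word that starts 40 to 21 bases before the start of transcription was in 3 of the 9, against 2.73% of all promoters, and TATATA or TATAAA stood anywhere on either strand in 17.1%. That word began at base −29 of Neurog2, at −31 of Neurod1 and at −28 of Nhlh1, and none was found for Neurog1, Nhlh2, Neurod2, Neurod6 or either promoter of Neurod4. Neurod4 was lower in both cKO libraries as Neurog2, Neurod1 and Nhlh1 were, so the word did not go with the lower level in all 4. The TATA search was chosen after the promoters had been read. The G+C content was 58.0% for Neurog2, 69.3% for Neurog1, 66.7% for Neurod1 and 56.3% for Nhlh1, beside a median of 52.7% over all promoters. These matches describe letters only.

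The libraries held 16581252 to 17096522 counts. Chd7 was at 136 and 132 CPM in the cKO, against 339 and 345 CPM in the control (log2 fold change −1.35, SE 0.05, edgeR adjusted p = 8.7e-05). CPM here is the count scaled to library size, with TMM factors. The counts cover all exons, so any reads outside the floxed part are included. A marker of the dissected tissue was present in every library: Emx2, a factor of the dorsal telencephalon, was at 154 and 138 CPM in the cKO and 179 and 130 CPM in the control. Blood genes moved in the same comparison, with 6 of 9 tested erythroid genes called lower in the cKO (edgeR adjusted p under 0.05).

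Of the 8 members, 6 passed the count filter and 2, Neurod2 and Neurod6, did not. In the cKO 1 of the 6, Neurod1, was called lower and 0 were called higher, while 2.13% of all 14235 genes tested were called lower, 1.57% higher and 3.70% in either direction (edgeR quasi-likelihood test, Benjamini-Hochberg adjusted p under 0.05 over all genes tested). Neurog2, Neurod4 and Nhlh1 had adjusted p of 0.0504 to 0.077. At an unadjusted p under 0.05, 4 members were lower and 0 higher, beside 9.10% of all genes lower. In those same 4 both cKO libraries were below both control libraries, as were 24.0% of all genes tested. No member had both cKO libraries above both controls, as 24.3% of all genes did. Neurog1 and Nhlh2 had overlapping groups. The median log2 fold change over the 6 was −0.86, against −0.00028 over all genes tested. In a bulk sample fewer cells of a type and less RNA per cell cannot be told apart, and this holds for each value below.

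**Figure D1:**
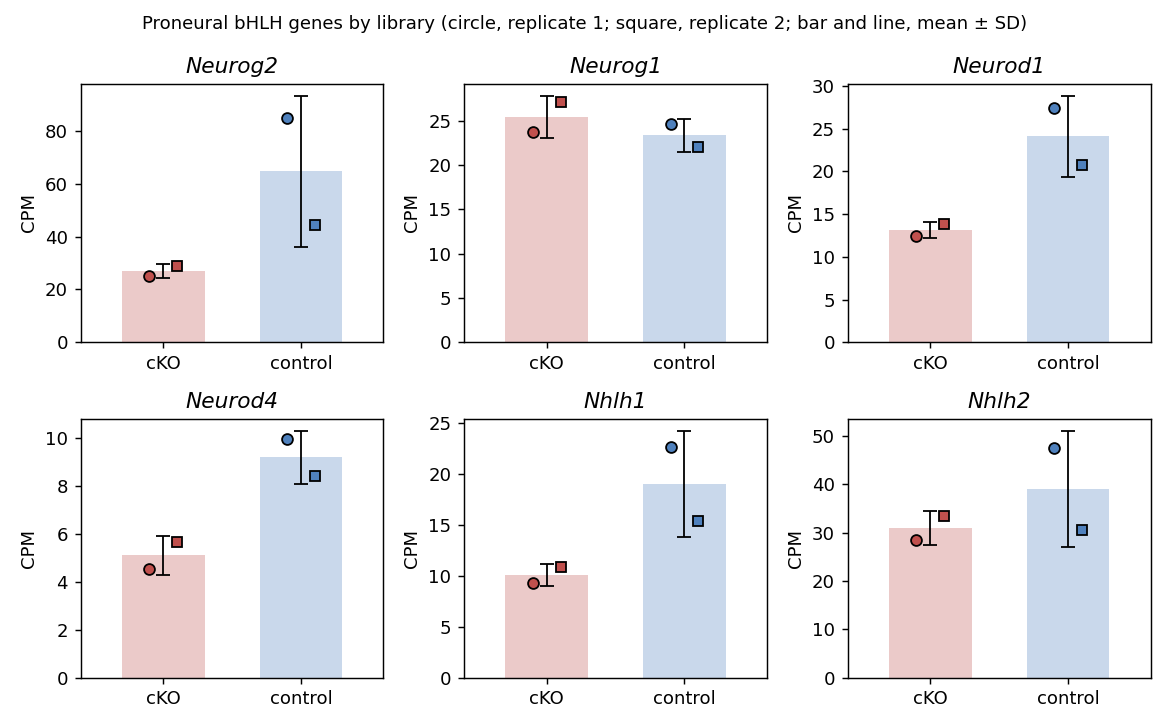
CPM of the 6 tested members in each library, cKO on the left and control on the right; circles are replicate 1, squares replicate 2, and bars with lines the mean ± SD of 2 libraries. Both cKO points lie below both control points for Neurog2, Neurod1, Neurod4 and Nhlh1, and the groups overlap for Neurog1 and Nhlh2.

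Neurog2 (GRCm38 chromosome 3, 127632733 to 127635636), the neurogenin that starts neurogenesis in the dorsal forebrain, had 416 and 487 counts in the cKO and 1417 and 756 in the control. These were 25.1 and 28.8 CPM in the cKO, against 84.9 and 44.5 CPM in the control. Both cKO libraries were low and close to each other, and control replicate 1 stood well above control replicate 2. The mean was 26.9 ± 2.6 CPM in the cKO and 64.7 ± 29 CPM in the control (SD, n = 2 each), 2.40-fold lower. Its log2 fold change, −1.26 with an SE of 0.27, missed the threshold (edgeR, adjusted p = 0.0504). The size rests on which control is used. Without control replicate 1 it was −0.72 and without control replicate 2 it was −1.66. Without a cKO library it was −1.17 or −1.37. A fit with 1 library in a group takes its scatter from the other group alone. With a control left out, the spread between the controls therefore no longer enters, and a call there is no added evidence. With all 4 libraries the alternatives gave adjusted p from 0.0456 (edgeR, no count filter) to 0.1015 (DESeq2 Wald test).

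Neurog1 (chromosome 13, 56250478 to 56252180), the paralog that in the mouse also specifies cranial sensory neurons, had 394 and 458 counts in the cKO and 411 and 374 in the control. The levels were 23.7 and 27.1 CPM in the cKO, against 24.6 and 22.0 CPM in the control, and the groups overlapped. The log2 fold change was 0.12 (SE 0.12, edgeR adjusted p = 0.66). It lay between 0.03 and 0.22 in every fit that left a library out. So, of the neurogenins, Neurog2 was lower in both cKO libraries and Neurog1 was not.

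Their balance can be read within a library, where no scaling enters. Neurog2 made up 51.4% of the summed Neurog1 and Neurog2 counts in cKO replicate 1 (exact 95% interval 47.9% to 54.9%) and 51.5% in cKO replicate 2 (48.3% to 54.8%). In the control it made up 77.5% in replicate 1 (75.5% to 79.4%) and 66.9% in replicate 2 (64.1% to 69.6%). Each cKO share was within the interval of the other, and both lay below both controls, which also differed from each other. The mean share was 51.45 ± 0.125% in the cKO and 72.2 ± 7.5% in the control (SD, n = 2 each), a difference of −20.8 percentage points. An exact two-sided permutation test gave p = 0.333, the smallest that 2 against 2 libraries can give. Intervals cover counting error only.

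**Figure D2:**
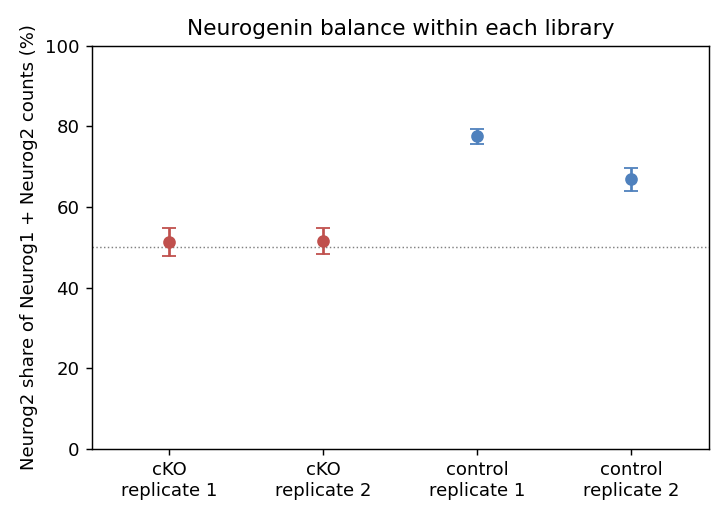
Share of Neurog2 in the summed counts of Neurog1 and Neurog2, in percent, for each library, with exact 95% binomial intervals; the dotted line is 50%. The cKO libraries sit at 51.4% and 51.5% and the control libraries at 77.5% and 66.9%.

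Neurod1 (chromosome 2, 79452637 to 79456636), a differentiation factor that follows the neurogenins, had 207 and 234 counts in the cKO and 458 and 353 in the control. That is 12.5 and 13.8 CPM in the cKO, against 27.5 and 20.8 CPM in the control. The groups did not overlap, and control replicate 1 was again the highest. Neurod1 fell 1.83-fold in the mean. The fitted log2 fold change was −0.87 with an SE of 0.16 (edgeR, adjusted p = 0.034). The call was lost when control replicate 1 was left out (−0.66, adjusted p = 0.112), when either cKO library was (−0.80 and −0.95, adjusted p = 0.108 and 0.0899), and with the replicate number as a block (−0.86, 0.069). In GENCODE M21 the exons of Neurod1 share 201 bases with Cerkl on the same strand and 154 bases with Gm26755 on the opposite strand, and no other member shares exon bases with another gene. Cerkl had 2 to 4 counts per library.

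Neurod4 (chromosome 10, 130268152 to 130280254), also called Math3, a NeuroD gene of early differentiating neurons, was the lowest tested member. It had 75 and 96 counts in the cKO and 166 and 143 in the control, or 4.52 and 5.68 CPM in the cKO, against 9.95 and 8.41 CPM in the control. The groups did not overlap and the controls were close to each other. Its log2 fold change was −0.85 (SE 0.21, edgeR adjusted p = 0.077), and it was called in none of the 10 alternatives, with values from −1.02 to −0.69. Its adjusted p there was 0.0722 to 0.282. With 75 counts in the lowest library, the depth behind Neurod4 is the smallest among the tested members.

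The other NeuroD genes were near the limit of detection. Neurod2, of maturing cortical neurons, had 1 and 2 counts in the cKO and 6 and 1 in the control. Neurod6, of postmitotic pyramidal neurons, had 0 counts in both cKO libraries and in control replicate 2 and 1 count in control replicate 1. A floor of 3 counts in a library stands for at most 0.181 CPM, and no fold is given for either gene.

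Nhlh1 (chromosome 1, 172052292 to 172057596), a bHLH gene of newly formed neurons, had 154 and 183 counts in the cKO and 378 and 261 in the control. It was at 9.28 and 10.8 CPM in the cKO, against 22.7 and 15.4 CPM in the control. Both cKO libraries were low, and the controls differed 1.48-fold. The log2 fold change was −0.92 (SE 0.21, edgeR adjusted p = 0.059), and −0.61 without control replicate 1 (adjusted p = 0.207) or −1.17 without control replicate 2 (0.0076). Over the 10 alternatives its adjusted p was 0.0076 to 0.207.

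Nhlh2 (chromosome 3, 102010111 to 102015492), the partner gene of Nhlh1, also used in hypothalamic neurons, had 473 and 565 counts in the cKO and 792 and 520 in the control. It stood at 28.5 and 33.4 CPM in the cKO, against 47.5 and 30.6 CPM in the control, so cKO replicate 2 was above control replicate 2. Its log2 fold change, −0.33 with an SE of 0.19, was not called (edgeR, adjusted p = 0.43). It was 0.02 without control replicate 1 (0.98) and −0.62 without control replicate 2 (0.023).

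**Figure D3:**
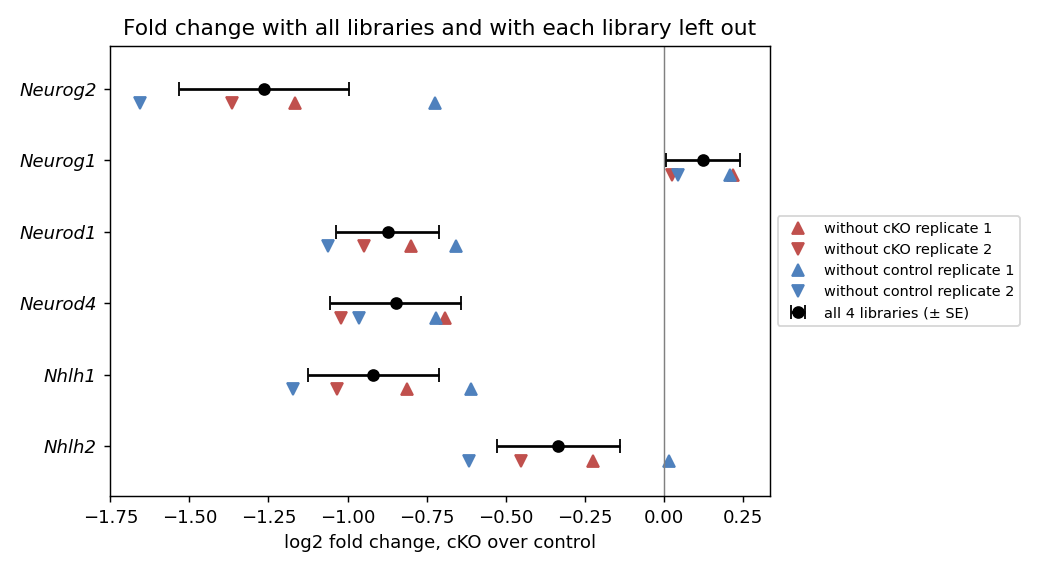
Log2 fold change of cKO over control for each tested member, with all 4 libraries (black, ± SE) and with each library left out (red, a cKO library; blue, a control). Neurog2 runs from −1.66 to −0.72 and Nhlh2 from −0.62 to 0.02, both ends set by which control is left out.

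The number of members called depended on the libraries in the fit. Where 1 library was left in a group, the scatter came from the other group alone, so these counts are not further support. Leaving out control replicate 2 gave 4 called lower (Neurog2, Neurod1, Nhlh1 and Nhlh2), where 2.92% of all genes were. Leaving out control replicate 1 gave 1, Neurog2, beside 1.29% of all genes. Leaving out cKO replicate 1 or cKO replicate 2 gave 0 by edgeR, beside 1.33% and 0.955% of all genes, with 4 at an unadjusted p under 0.05 in each. With the replicate number as a block it was also 0, beside 1.48%. With all 4 libraries it was 1, Neurod1, with DESeq2 size factors (2.14% of all genes), at a mean of 5 CPM or more (2.52%) and with limma-voom (1.90%). It was 2 without a count filter, Neurod1 and Neurog2 (1.67%), and 2 by the DESeq2 Wald test, Neurod1 and Nhlh1 (2.49%).

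The members shared an order among replicates. In all 6 tested members control replicate 1 was above control replicate 2, by 1.12-fold for Neurog1 to 1.91-fold for Neurog2, while 50.5% of all genes tested were higher in that replicate. In all 6, cKO replicate 2 was above cKO replicate 1, as were 50.4% of all genes tested. The summed counts of the 8 members were 1720 and 2025 in the cKO and 3629 and 2408 in the control, or 0.0104% and 0.0118% of all counts in the cKO and 0.0218% and 0.0142% in the control. Control replicate 2 therefore lay nearer to the cKO libraries than to its own replicate.

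Levels can be roughly compared between genes once divided by exon length (CPM per kilobase, with exon lengths from GENCODE M21). The counts were made over RefSeq exons, so length and count do not come from the same gene models. For Nhlh2 the GENCODE length, 5417 bases, is longer than the whole span given above, so its level may be too low. The place of Nhlh2 in the orders below, and the shares of the sum, depend on these lengths. In the cKO the order by mean was Neurog1 at 15.1, Neurog2 at 12.1, Nhlh2 at 5.71, Neurod1 at 4.82, Nhlh1 at 4.08 and Neurod4 at 1.52 CPM per kilobase, and no neighbours in that order overlapped between libraries. In the control it was Neurog2 at 29.1, Neurog1 at 13.8, Neurod1 at 8.84, Nhlh1 at 7.71, Nhlh2 at 7.21 and Neurod4 at 2.75 CPM per kilobase. There Neurod1, Nhlh1 and Nhlh2 were not separated beyond the spread of their 2 libraries. Neurog2 made up 27.9% of the length-scaled sum of the 6 genes in both cKO libraries, against 45.5% and 36.3% in the control libraries. Neurog1 made up 35.0% and 34.7% of it in the cKO, against 17.5% and 23.7% in the control.

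Markers of newborn neurons moved in the same comparison. Of 12 such genes, 4 were called lower in the cKO and 0 higher, with a median log2 fold change of −0.61, and none of the 12 was at 0. Their summed level was 622 and 644 CPM in the cKO and 1069 and 898 CPM in the control. The neuronal tubulin gene Tubb3 was at 162 and 180 CPM in the cKO, against 295 and 244 CPM in the control (adjusted p = 0.013), and Map2, a dendritic microtubule protein gene, at 151 and 139 CPM in the cKO, against 266 and 189 CPM in the control (0.054). Elavl3 and Mapt, of young neurons, fell by 0.90 and 1.52 on the log2 scale. Each member was therefore also set against these markers, as counts per 100 summed counts of the 12 genes. On that scale 2.18% of all genes tested were lower in both cKO libraries than in both controls, and 85.6% were higher, since the summed markers themselves were lower in the cKO.

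Neurog2 had 4.03 and 4.47 counts per 100 marker counts in the cKO, against 7.95 and 4.95 in the control. Neurod1 had 2.003 and 2.149 in the cKO, against 2.57 and 2.31 in the control. Nhlh1 had 1.49 and 1.68 in the cKO, against 2.12 and 1.71 in the control. Neurod4 had 0.726 and 0.882 in the cKO, against 0.931 and 0.936 in the control. These 4 members were thus on the lower side with 2.18% of genes, but the counting intervals of the nearest cKO and control libraries overlapped for all 4 of them. Neurog1 had 3.81 and 4.21 counts per 100 marker counts in the cKO, against 2.31 and 2.45 in the control, and Nhlh2 had 4.58 and 5.19 in the cKO, against 4.44 and 3.40 in the control, on the side of the 85.6%. For Nhlh2 the counting intervals of cKO replicate 1 (4.17 to 5.02) and control replicate 1 (4.13 to 4.77) overlapped as well. For Neurog1 the cKO and control intervals did not overlap. Whether fewer neurons or less expression per neuron gave the lower CPM was not tested.

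**Figure D4:**
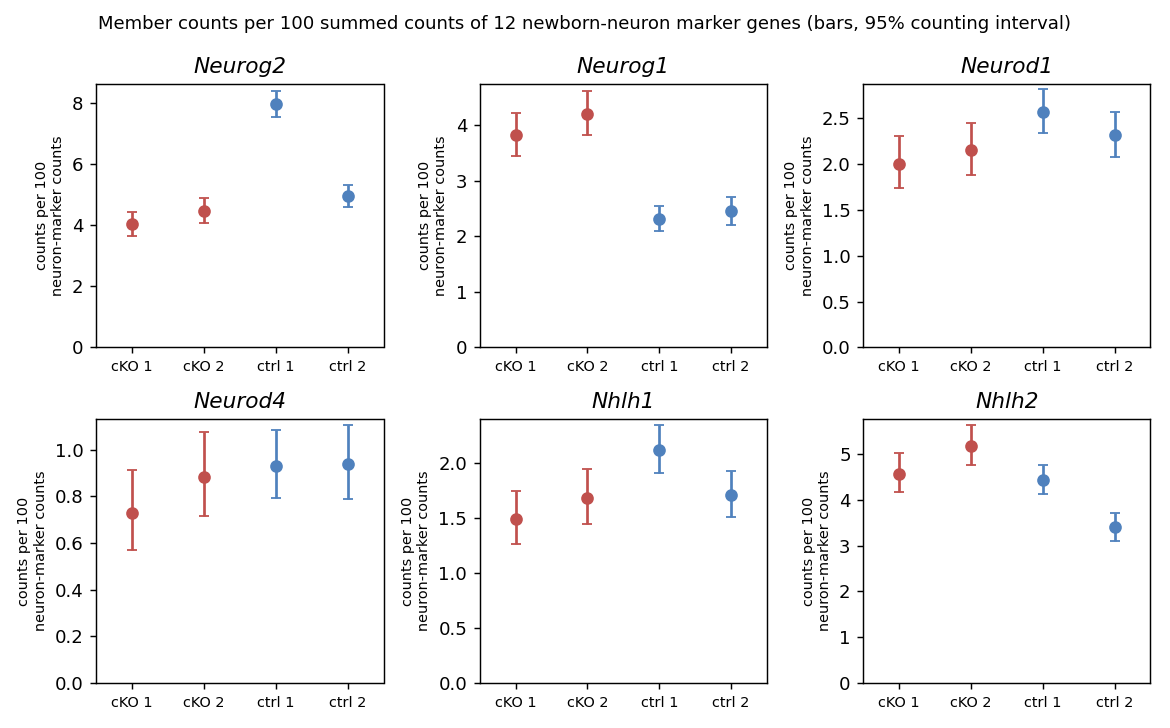
Counts of each tested member per 100 summed counts of 12 newborn-neuron marker genes, for the cKO and then the control libraries, with 95% counting intervals. Neurog1 is at 3.81 and 4.21 in the cKO and 2.31 and 2.45 in the control; Neurog2 is at 4.03 and 4.47 in the cKO and 7.95 and 4.95 in the control.

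Among 11 related neural bHLH genes 6 were tested, 2 were called lower in the cKO and 0 higher, and the median log2 fold change was −0.75. Olig2, a factor of ventral progenitors, fell to 16.3 and 16.6 CPM in the cKO, against 30.5 and 52.4 CPM in the control (log2 fold change −1.33, SE 0.23, edgeR adjusted p = 0.028). Neurog3, the remaining neurogenin, had at most 0.181 CPM in any library, and Atoh1 and Ptf1a, of the hindbrain and cerebellum, had at most 0.0602 CPM. Leaving out either cKO library gave 1 lower gene.

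Of 13 partners and inhibitors 1 was called lower and 2 higher, with a median of 0.10. The E proteins that pair with proneural factors were near their control levels: Tcf3 was at 350 and 353 CPM in the cKO and 360 and 363 CPM in the control (log2 fold change −0.04, SE 0.04), Tcf12 had −0.14 (SE 0.05) and Tcf4 0.10 (SE 0.08), with edgeR adjusted p of 0.233 to 0.676. The Id genes encode proteins that sequester E proteins. Id1 rose to 48.2 and 52.9 CPM in the cKO, against 32.3 and 25.2 CPM in the control (0.81, SE 0.12, adjusted p = 0.016), and Id3 rose by 0.60, while Id4 fell by 1.48. The Notch effectors Hes1 and Hes5, which repress proneural genes, had log2 fold changes of 0.30 and −0.38 (adjusted p = 0.089 and 0.128). Leaving out control replicate 2 or cKO replicate 2 gave 2 lower genes of this list, and leaving out cKO replicate 2 gave 1 higher.

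In a list of 16 genes described as targets of neurogenin or NeuroD factors in mouse, frog or chick, 3 were called lower in the cKO and 0 higher, with a median of −0.34. The 3 were St18 and Myt1, zinc finger factors of differentiation, and Insm1, a zinc finger factor of progenitors that commit to differentiation. Insm1 was at 16.6 and 18.6 CPM in the cKO, against 45.0 and 27.5 CPM in the control (log2 fold change −1.04, SE 0.22, edgeR adjusted p = 0.049). Among those not called, Rnd2, a migration gene activated by Neurog2, was at 26.4 and 27.2 CPM in the cKO, against 47.3 and 29.7 CPM in the control (−0.52, SE 0.20, adjusted p = 0.23), and Eomes, of intermediate progenitors, was at 37.9 and 25.1 CPM in the cKO, against 87.6 and 46.8 CPM in the control (−1.09, SE 0.29, adjusted p = 0.10). The Notch ligand gene Dll1 was at 93.7 and 107 CPM in the cKO, against 135 and 117 CPM in the control (−0.33, SE 0.09, adjusted p = 0.10). These genes, picked from the list after their values were seen, show control replicate 1 above control replicate 2 as Neurog2 does. Not all of the list did so: Ebf3 was at 33.8 CPM in control replicate 1 and 49.9 CPM in control replicate 2. Of the 16 genes, 14 had a log2 fold change below 0. Ebf2 and Ebf3 went the other way, with 0.23 (SE 0.16) and 0.18 (SE 0.17). Leaving out control replicate 2 gave 9 lower genes and leaving out any of the other libraries gave 2, and the list median was −0.18 without control replicate 1.

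Of 9 regional regulators, which pattern the forebrain, 5 were called lower and 0 higher, with a median of −0.81. Pax6, a direct activator of Neurog2 in the cortex, was at 105 and 104 CPM in the cKO, against 218 and 208 CPM in the control (log2 fold change −1.03, SE 0.05, edgeR adjusted p = 0.00034). Gsx2, a factor of ventral progenitors, fell by 2.86 on the log2 scale, and Nr2e1, a factor of forebrain progenitors, fell by 0.81. Gli3 and Emx2, which shape the dorsal telencephalon, had −0.05 (SE 0.07) and −0.08 (SE 0.13), with adjusted p of 0.76 and 0.82. The controls were close for Pax6 and 1.91-fold apart for Neurog2.

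**Figure D5:**
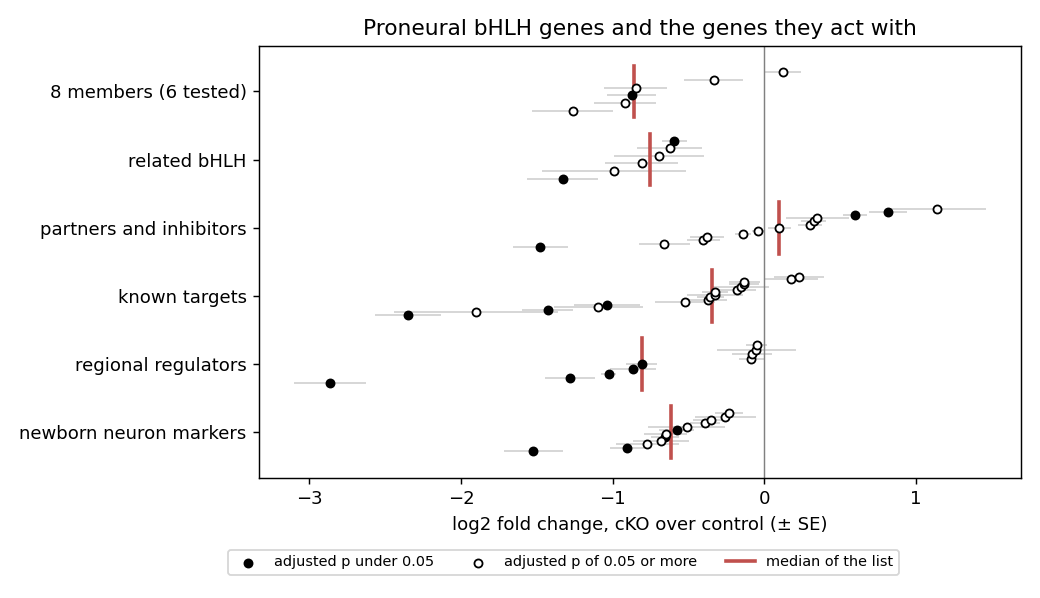
Log2 fold change of cKO over control (± SE) for the tested members and for tested genes of the 5 lists they were set beside; filled points have an edgeR adjusted p under 0.05 and red bars mark list medians. The medians are −0.86 for the members, −0.75 for related bHLH genes, 0.10 for partners and inhibitors, −0.34 for known targets, −0.81 for regional regulators and −0.61 for newborn neuron markers.

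Neurog1, Neurod1 and Nhlh1 are also used in cranial sensory ganglia, so markers of that tissue were examined. Of 12 ganglion markers, 11 were in the table. Isl2, Tlx3 and Prph were at most 0.765 CPM in any library. The most abundant, Six4 and Eya2, were at 14.5 to 31.8 CPM in the cKO and 8.93 to 30.1 CPM in the control. The summed ganglion markers were at 62.7 and 53.2 CPM in the cKO and 52.3 and 82.2 CPM in the control, with control replicate 2 highest, and 2 of 6 tested, Pou4f1 and Isl1, were called lower (1 without control replicate 1 or cKO replicate 2). Pou4f1, also used by early midbrain neurons, was at 1.08 and 1.83 CPM in the cKO, against 8.93 and 11.9 CPM in the control.

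Markers of other regions and cell types differed between libraries as well. The summed ventral midline markers were at 12.7 and 65.9 CPM in the cKO and 21.8 and 73.4 CPM in the control. Replicate 2 of each group was thus high, and 0 of 7 were called (edgeR; 1 lower and 0 higher at an unadjusted p under 0.05, 1 by DESeq2). Nkx2-1 was at 4.28 and 8.04 CPM in the cKO and 3.42 and 33.9 CPM in the control, and Shh at 2.47 and 40.6 CPM in the cKO and 6.77 and 22.8 CPM in the control. Summed erythroid markers were at 1894 and 1807 CPM in the cKO and 2850 and 3069 CPM in the control. All 9 tested genes had a log2 fold change below 0, with 6 called lower and 0 called higher (edgeR). Hba-a1 and Hba-a2 were listed at 0, near-identical copies whose reads the counting may have dropped. Hbb-y and Hbb-bh1, embryonic globins, fell by 0.70 and 0.67 on the log2 scale. The endothelial list had 238 and 232 CPM in the cKO and 293 and 277 CPM in the control, led by Kdr (log2 fold change −0.20) and Cdh5 (−0.34). The mesenchyme list had 900 and 585 CPM in the cKO and 905 and 997 CPM in the control, led by Col3a1 (−0.51) and Col1a2 (−0.13). Neither had a called gene (edgeR; at an unadjusted p under 0.05, 5 of 8 and 3 of 9 were lower and 0 higher; DESeq2 called 0 in each), and the mesenchyme list had 4 lower without cKO replicate 1 and 1 without control replicate 1, and the ventral list had 2 lower when control replicate 1 was left out and 1 when cKO replicate 2 was. The part of these differences in the values of the proneural genes was not tested.

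The genes most like Neurog2 and Neurod1 across the libraries were found by the root mean square distance between log2 CPM profiles over the 4 libraries, each centred on its own mean, among 10813 genes that averaged 5 CPM or more, predicted genes left out. The nearest to Neurog2 was Acss1, which encodes a mitochondrial acetyl-CoA synthetase (distance 0.0564 log2 units). Also among the 5 nearest were Insm1 (0.126), the calcium channel subunit gene Cacna2d1 (0.128) and Scrt2 (0.145), which encodes a transcriptional repressor made in new neurons. Acss1 was at 7.77 and 9.64 CPM in the cKO, against 26.3 and 14.9 CPM in the control, with control replicate 1 again the highest. The 5 nearest to Neurod1 were the sodium channel gene Scn3a (0.0339), Nhlh1 (0.063), Napepld, a phospholipase D gene (0.0708), Elavl3 (0.0713) and Foxp2, a forkhead factor (0.0747). Within the family Neurod1, Neurod4 and Nhlh1 lay 0.063 to 0.121 log2 units from each other. Neurog2 was 0.201 from Nhlh1 and 0.711 from Neurog1, the widest distance among the 15 pairs of tested members, and Nhlh1 and Nhlh2 were 0.294 apart. These distances describe 4 libraries and are no test.

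The authors' deposited table, made with DESeq2 per the submitters' processing notes, holds 2 members with an adjusted p under 0.05: Neurod1 (log2 fold change −0.88, adjusted p = 0.0022) and Nhlh1 (−0.92, adjusted p = 0.0090). Of all genes with an adjusted p in the authors' deposited table, 2.49% were lower and 1.99% higher. Neurog2 has −1.27 with an SE of 0.46 and an adjusted p of 0.101 in the authors' deposited table, and Neurod4 has −0.85 and 0.137. For Neurog1 and Nhlh2 the authors' deposited table gives 0.12 and −0.34, with adjusted p of 0.999 and 0.613. Neurod2 and Neurod6 have no adjusted p in the authors' deposited table. For the 6 tested members these values are the same as those of the DESeq2 Wald test among the alternatives. The authors' table is therefore that same test on the same counts, and its calls are no added evidence.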

How the data were processed

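Polyadenylated RNA of 4 forebrain samples was sequenced. The authors deposited raw counts per gene, made with featureCounts 2.0.1 from paired-end reads over exons of a RefSeq mm10 annotation with no strand option, per the file headers. HISAT2 and DESeq2 are named in the submitters' processing notes, their versions being not given in the sources used here. A comparison table by the authors holds log2 fold changes, p-values, a Wald statistic (a score, not used) and normalized counts, a signal the authors deposited that equals the raw count over 1 constant per library (0.990 to 1.013). All columns were mapped to samples, and 0 were left over. Groups came from the titles. Genes were kept by filterByExpr (minimum count 10), 14235 in all, scaled by TMM and tested in edgeR 4.0.16 (glmQLFit, glmQLFTest) under R 4.3.3 with no covariate. The SE is the log2 fold change over the root of F. CPM profiles used a prior count of 2. Replicates had a common biological coefficient of variation of 0.0785. The step was also run on simulated counts with planted fold changes, whose outcome is not reported here. Those counts were drawn independently for each gene, so they hold no shift shared by genes within a library. Alternatives were DESeq2 size factors, no filter, a floor of 5 CPM on the mean, limma-voom (limma 3.58.1), the Wald test of DESeq2 1.42.0, the replicate block and each library left out. The members, lists and tests were chosen with earlier results of these data known. Named were all members, Chd7, called genes of each list up to 4 and the most abundant markers; a few others are given as chosen after their values were seen, and some genes that the rule names are not reported here. Promoters are from RefSeq, exon lengths and overlaps from GENCODE M21 (GRCm38). Plots used matplotlib 3.10.9.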

Additional observations from a re-analysis of the deposited data

How the results depend on the processing

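The 6 tested members kept the direction of their log2 fold change under all 10 alternatives, except Nhlh2, whose value was 0.01699 without control replicate 1 and −0.6172 without control replicate 2; the cause was not tested. With all 4 libraries in the fit, Neurog2 ran from −1.27 to −1.19. The number of members called lower was 1, and 2 with no count filter (Neurod1 and Neurog2) or with the DESeq2 Wald test (Neurod1 and Nhlh1). With the replicate block it was 0, with 4 members lower at an unadjusted p under 0.05. The replicate numbers share no stated source, and the deviations of same-numbered libraries correlated at −0.0531 across genes. Leaving out a library moved the count of lower members between 0 and 4 (0 without cKO replicate 1 or 2, again with 4 at an unadjusted p under 0.05, and 4 without control replicate 2), and 0 were called higher in each fit. The change in Neurog2 share was −26.1 to −15.5 percentage points. Lower related bHLH genes numbered 1 with limma-voom and 1 to 3 with a library left out. Lower known targets were 5 with the Wald test and 2 to 9 with a library left out. Lower partners and inhibitors were 1 to 2, and higher ones 1 to 3. Lower ganglion markers were 1 at a mean of at least 5 CPM and 1 to 2 with a library left out, and higher ones 0 to 1. Lower ventral midline markers were 1 with the Wald test and 0 to 2 with a library left out, and mesenchyme markers 0 to 4. Counts of 75 and 96 in the cKO and 166 and 143 in the control for Neurod4, and of at most 6 in any library for Neurod2 and Neurod6, limit what can be seen at this depth. A fit without a library assumes that the lone library varies like the other group.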
